A study of Mus musculus with 12 samples.

Results

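Connexins are the subunits of gap junctions, and 6 of their genes were followed here in mouse cardiac fibroblasts that were reprogrammed toward induced endothelial cells (iECs). The genes were *Gja5*, *Gja4*, *Gja3*, *Gja1*, *Gjc1* and *Gjb2*, taken as the rows of the deposited gene table whose Ensembl identifiers carry those symbols. They are 6 of the 35727 genes in the table, and the rule uses symbols alone, although the genes were chosen with earlier results of these samples known. Of the 6, 5 passed the filter on low counts and were tested among 15506 genes, whereas *Gjb2* did not pass it.

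Bulk RNAseq libraries came from *Sox17*-*Erg* and control cultures harvested at Day 3, at Day 7 or after 4 weeks, and each of the 6 groups holds 2 libraries. Both conditions used fibroblasts from the pooled hearts of neonatal mice, of the *C57BL/6J* strain or, per the methods, of a *Tcf21*-CreERT2 line bred with *Rosa26*-tdTomato, and both were grown in EGM2 media. The *Sox17*-*Erg* cultures, labelled iEC, received retroviruses carrying the transcription factors *Sox17* and *Erg* in a pMX backbone, and the control cultures are labelled fibroblast. The control libraries also carry the prefix PMX in their descriptions, the name of that backbone, and the sources used here do not say whether those cultures were infected or what such a virus carried. The methods describe removal of PECAM1-positive cells and magnetic selection of THY1-positive cells, but name no sort between infection and RNA isolation, so that a *Sox17*-*Erg* library can hold cells that took up the retroviruses and cells that did not. Neither the labels nor the methods say whether the 2 libraries of a group came from separate isolations, and the p-values therefore measure only the spread between these libraries.

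A connexin protein spans the membrane, assembles with others into a half-channel, and docks with its counterpart on a neighbouring cell to let ions and small molecules pass. In the vessel wall, Cx40 (*Gja5*) and Cx37 (*Gja4*) are the connexins of arterial endothelium, where they carry electrical signals along the vessel. In the heart, Cx43 (*Gja1*) is the main connexin of working ventricular muscle and of fibroblasts, and Cx45 (*Gjc1*) is found in the conduction system and in smooth muscle. Cx46 (*Gja3*) is best known from lens fibre cells and Cx26 (*Gjb2*) from epithelia such as those of the liver and inner ear.

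The arterial and fibroblast genes sit at separate places in the genome, and their upstream sequences are shown because the *Sox17*-*Erg* factors belong to the SOX and ETS families of DNA-binding proteins. RefSeq (GRCm38.p6) gave a start site for 5 of the 6 genes, all but *Gjc1*. Each line gives the 250 bases before that start, read 5′ to 3′ on the strand of the gene, with capitals marking the letters GGAAG (the core of many ETS sites) or ACAAT (the core of many SOX sites) on either strand, that is also CTTCC or ATTGT.
*Gja5*, chr3:97032152-97032401, plus strand: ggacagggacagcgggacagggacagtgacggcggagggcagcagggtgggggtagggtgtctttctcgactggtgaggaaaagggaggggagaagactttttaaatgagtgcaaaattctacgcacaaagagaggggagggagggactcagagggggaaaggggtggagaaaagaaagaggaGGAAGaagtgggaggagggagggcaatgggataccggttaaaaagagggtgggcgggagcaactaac
*Gja4*, chr4:127314040-127314289, minus strand: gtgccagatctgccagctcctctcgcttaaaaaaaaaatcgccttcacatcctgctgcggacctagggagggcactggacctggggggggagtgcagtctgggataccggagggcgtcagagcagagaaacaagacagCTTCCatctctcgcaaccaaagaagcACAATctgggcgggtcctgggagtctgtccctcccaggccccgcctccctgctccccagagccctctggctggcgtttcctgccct
*Gja1*, chr10:56377050-56377299, plus strand: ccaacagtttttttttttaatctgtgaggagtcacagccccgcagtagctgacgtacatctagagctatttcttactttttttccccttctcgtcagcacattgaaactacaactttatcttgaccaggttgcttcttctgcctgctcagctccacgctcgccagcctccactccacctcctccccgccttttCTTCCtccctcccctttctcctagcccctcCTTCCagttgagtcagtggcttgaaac

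These windows hold 1 ETS word for *Gja5*, 67 bases before the start, and 1 for *Gja4*, 112 bases before it. *Gja4* also holds 1 SOX word, 86 bases before the start. *Gja1* holds 2 ETS words and no SOX word. Across 32851 promoter windows of the same length, 64.1% held the ETS word, 27.7% the SOX word and 16.4% both, so a match is common and is a description of letters only. For *Gja5* the GENCODE gene begins at chr3:96904693, upstream of the RefSeq start used for the window.

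The 6 genes lie on 5 chromosomes of GRCm38. *Gja5* lies at chr3:96904693-97077416 and *Gja4* at chr4:127311421-127314039. *Gja3* (chr14:57034460-57058100) lies 40.5 kb from *Gjb2* (chr14:57098600-57104702). *Gja1* (chr10:56377330-56402513) and *Gjc1* (chr11:102799579-102819700) have no connexin neighbour within 1 Mb.

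The cultures were checked against markers of the cell types they could hold. Levels are given in CPM, the depth-scaled count after TMM normalization. The 8 endothelial markers summed to 18.4 to 58.5 CPM in the 6 control libraries and 311 to 772 CPM in the 6 *Sox17*-*Erg* libraries. The endothelial cadherin *Cdh5* was at 14.3 CPM in control Day 3 replicate 2 and 8.08 CPM in control Day 7 replicate 2, against 0.91 CPM or less in the other control libraries, and these 2 libraries are left out as an alternative where a connexin result rests on them. Fibroblast markers remained abundant in both conditions, at 9270 to 25400 CPM in control and 7360 to 28600 CPM with *Sox17*-*Erg*. Smooth muscle and pericyte markers summed to 503 to 3650 CPM in control and 1760 to 4650 CPM with *Sox17*-*Erg*, and cardiomyocyte markers to 626 to 1520 CPM and 332 to 681 CPM. Macrophage markers ranged from 44.2 to 1250 CPM in control and 64.4 to 434 CPM with *Sox17*-*Erg*, and mesothelial and epithelial markers from 286 to 1390 CPM and 140 to 324 CPM. At 4 weeks 7 of 8 endothelial markers were called higher with *Sox17*-*Erg*, as were 4 of 8 smooth muscle and pericyte markers (2 were lower), while 6 of the 7 tested mesothelial and epithelial markers, 5 of 8 cardiomyocyte markers and 4 of 8 fibroblast markers were called lower (1 fibroblast marker was higher). The 8 macrophage markers had edgeR adjusted p-values of 0.71 or more. In bulk RNA, fewer cells of a type and less RNA per cell cannot be told apart.

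Of the 5 tested connexins, 1 was higher with *Sox17*-*Erg* at Day 3, 2 were higher at Day 7 and 3 were higher at 4 weeks, and 0 were lower at any time point (edgeR's quasi-likelihood test, Benjamini-Hochberg adjusted p under 0.05). At an unadjusted p under 0.05, *Gja1* was lower at Day 7 and at 4 weeks, and the DESeq2 Wald test called it lower at both. So did a fit that pairs the libraries by replicate number within each time point, which was chosen after seeing the data. At Day 3 these counts were 0 as well. Among all 15506 tested genes, 7.19%, 9.48% and 11.9% were called higher at Day 3, Day 7 and 4 weeks, and 5.13%, 7.93% and 11% were called lower. The median log2 fold change of the 5 connexins was 0.61, 1.41 and 2.37 at the 3 time points, against 0.01, 0.01 and -0.01 for all genes. With 5 genes tested, this is a description of these members. The levels in each library are plotted for the 6 genes.

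**Figure D1:**
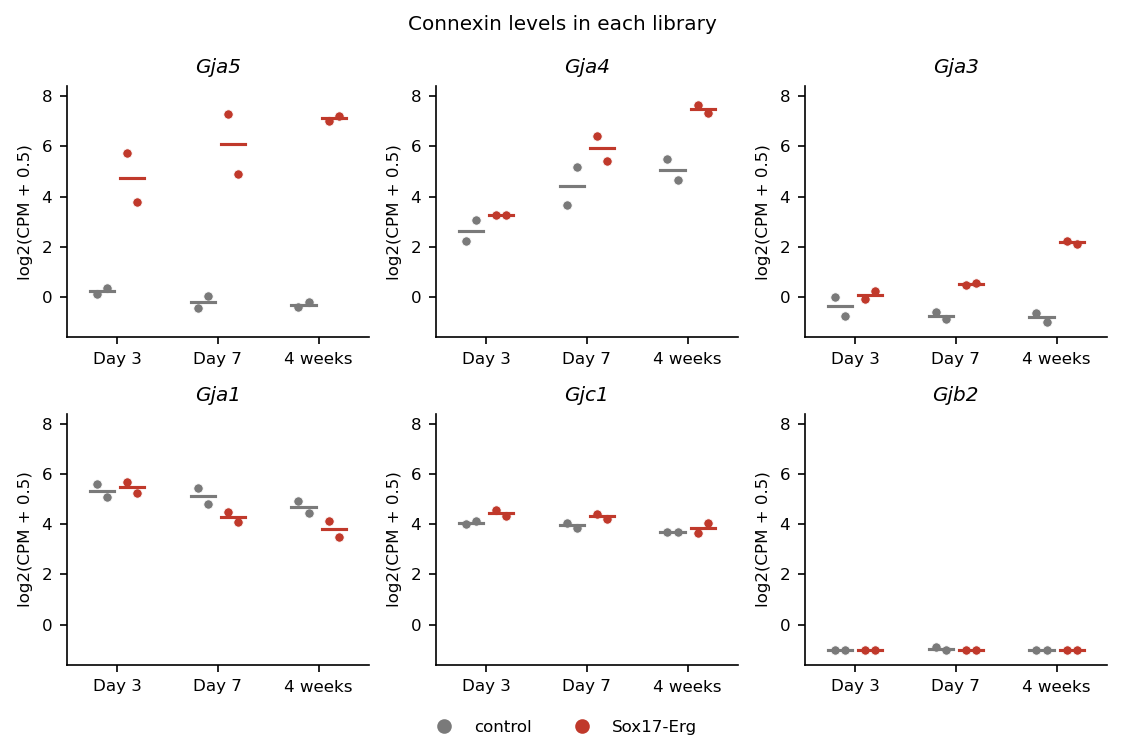
Level of each connexin in each library, as log2(CPM + 0.5) on the y axis, at Day 3, Day 7 and 4 weeks on the x axis, with points for libraries and lines for the mean of 2 libraries. *Gja5* separates *Sox17*-*Erg* from control at every time point, *Gja4* climbs in both conditions, *Gja3* stands clear of control at 4 weeks, and *Gjb2* lies at the floor.

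*Gja5*, the arterial Cx40 gene, was near the limit of detection in control and was called higher with *Sox17*-*Erg* at all 3 time points, as were 3.59% of all tested genes. Control libraries held 0.582 and 0.786 CPM at Day 3, 0.23 and 0.522 CPM at Day 7, and 0.251 and 0.366 CPM at 4 weeks, which is 6 to 17 counts per library. *Sox17*-*Erg* libraries held 52.1 and 13.2 CPM at Day 3, 155 and 29 CPM at Day 7, and 129 and 147 CPM at 4 weeks, or 307 to 5619 counts. Every *Sox17*-*Erg* library stood above every control library. The log2 fold change was 5.58 (SE 0.99, edgeR adjusted p = 0.011) at Day 3, 7.93 (SE 1.09, adjusted p = 0.0017) at Day 7 and 8.84 (SE 1.12, adjusted p = 0.00069) at 4 weeks.

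The replicates of *Gja5* lay far apart early and close together late. The higher *Sox17*-*Erg* library exceeded the lower 3.94-fold at Day 3 and 5.35-fold at Day 7, but 1.14-fold at 4 weeks. Replicate 1 was the higher one at Day 3 and Day 7. These libraries also had the larger sum of endothelial markers, 435 against 311 CPM at Day 3 and 626 against 415 CPM at Day 7. At Day 3 that gap lay mostly in *Cdh5* (208 against 148 CPM) and *Kdr* (106 against 42.3 CPM). *Pecam1* (23.6 against 23 CPM) and *Emcn* (67.8 against 67.9 CPM) were level there. *Vwf* and *Egfl7* were higher in replicate 2 at Day 3 and Day 7, as was *Tek* at Day 7. At 4 weeks replicate 1 again had the larger marker sum (772 against 608 CPM) but the lower *Gja5*. The part of endothelial content in that spread was not tested. The call at Day 3 was lost without *Sox17*-*Erg* Day 3 replicate 1 (log2 fold change 4.24, edgeR adjusted p = 0.065), without control Day 3 replicate 1 (5.36, adjusted p = 0.088) and without control Day 3 replicate 2 (5.76, adjusted p = 0.08). The calls at Day 7 and 4 weeks held under every alternative run.

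Within *Sox17*-*Erg* the rise of *Gja5* over time did not pass the threshold. From Day 3 to 4 weeks its log2 change was 2.08 (SE 0.74, edgeR adjusted p = 0.061), and within control it was -1.17 (SE 1.40, adjusted p = 0.57). The difference in the *Sox17*-*Erg* effect between 4 weeks and Day 3 was 3.25 (95% interval -0.32 to 6.82, edgeR adjusted p = 0.34). Of the 31-base words in the *Gja5* transcripts, 13.9% also occur in *Zfp697*. That gene ran at 16.3 to 26.3 CPM in the control libraries and 27.8 to 39.3 CPM in the *Sox17*-*Erg* libraries. Reads of those stretches could be divided between the genes, and the levels of *Gja5* in control did not reach 1 CPM in any library.

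*Gja4*, the other arterial connexin gene (Cx37), was already present in the control cultures and climbed there as well. Control libraries held 4.22 and 7.77 CPM at Day 3, 12.1 and 35.6 CPM at Day 7, and 44.5 and 24.4 CPM at 4 weeks. *Sox17*-*Erg* libraries held 9.16 and 9.05 CPM at Day 3, 84.3 and 42.3 CPM at Day 7, and 198 and 158 CPM at 4 weeks. At each time point both *Sox17*-*Erg* libraries were above both control libraries, with a narrow gap at Day 3 and Day 7 and a wide one at 4 weeks. The higher control library at Day 3 and at Day 7 was replicate 2, in which *Cdh5* was also raised. Such an order is common, since 34.1%, 29% and 30.3% of all tested genes showed it at Day 3, Day 7 and 4 weeks.

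The difference in *Gja4* passed the test at 4 weeks. The log2 fold change was 0.61 (SE 0.56, edgeR adjusted p = 0.5) at Day 3, 1.41 (SE 0.52, adjusted p = 0.096) at Day 7 and 2.37 (SE 0.53, adjusted p = 0.012) at 4 weeks, which is 5.15-fold. The difference of the effect between 4 weeks and Day 3 was 1.75 (95% interval 0.04 to 3.46, edgeR adjusted p = 0.29). The 4-week call was lost without control 4 weeks replicate 2 (log2 fold change 2.01, edgeR adjusted p = 0.075) and without *Sox17*-*Erg* 4 weeks replicate 1 (2.19, adjusted p = 0.062). At Day 7 the gene was called higher without control Day 7 replicate 2, a library with endothelial transcripts (log2 fold change 2.38, adjusted p = 0.034), and by the DESeq2 Wald test (1.40, adjusted p = 0.022).

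The rise of *Gja4* with time was called in both conditions. From Day 3 to 4 weeks it rose by a log2 change of 2.54 in control (SE 0.56, edgeR adjusted p = 0.011) and 4.29 with *Sox17*-*Erg* (SE 0.59, adjusted p = 0.0015), where it had already risen at Day 7 (2.80, SE 0.56, adjusted p = 0.035). From Day 3 to 4 weeks, 13.9% of all genes rose and 12.6% fell in control, and 15.1% rose and 15.6% fell with *Sox17*-*Erg*. From Day 3 to Day 7 with *Sox17*-*Erg* the shares were 2.04% and 1.38%. In the control libraries at 4 weeks, *Gja4* was at 44.5 and 24.4 CPM and *Cdh5* at 0.251 and 0.569 CPM. The endothelial markers there summed to 18.4 and 22.4 CPM, against 27.6 and 58.5 CPM in control at Day 3. Of these 8 markers, 2 were called lower over this time in control (*Pecam1* and *Egfl7*). The call for *Tek* was higher (log2 change 0.72, edgeR adjusted p = 0.025), and *Kdr* (-0.09) and *Vwf* (0.70) were not called. Smooth muscle and pericyte markers in control summed to 3650 and 3260 CPM at Day 3 and 952 and 2460 CPM at 4 weeks, against 4150 and 3990 CPM with *Sox17*-*Erg* at 4 weeks. *Acta2* and *Tagln* make up most of that sum, and single members moved apart in control from Day 3 to 4 weeks, where 3 of 8 were called higher and 1 (*Cspg4*) lower. The smooth muscle myosin gene *Myh11*, 1 of the 3, was at 9.64 and 11.1 CPM at Day 3 and 55.9 and 35.3 CPM at 4 weeks, and the others were *Rgs5* and *Kcnj8*. Their part in the *Gja4* values was not tested.

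*Gja3*, the lens connexin gene Cx46, rose late from a very low level. Control libraries held 14 and 2 counts at Day 3, 4 and 1 counts at Day 7, and 6 and 0 counts at 4 weeks. *Sox17*-*Erg* libraries held 9 and 16 counts at Day 3, 33 and 22 counts at Day 7, and 119 and 104 counts at 4 weeks, the last being 4.21 and 3.85 CPM. The groups overlapped at Day 3 and were separate at Day 7 and 4 weeks. The log2 fold change was 0.87 (SE 0.84, edgeR adjusted p = 0.53) at Day 3, 3.20 (SE 0.94, adjusted p = 0.045) at Day 7 and 5.45 (SE 0.91, adjusted p = 0.003) at 4 weeks.

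The sizes of the *Gja3* changes rest on 5 control counts at Day 7 and 6 at 4 weeks. Its call at Day 7 was lost in 12 of 21 alternative fits, with a log2 fold change between 2.56 and 4.37, and its call at 4 weeks was lost in 0 of 21. One of the 12 was the fit paired within each time point (3.22, edgeR adjusted p = 0.051). Within *Sox17*-*Erg* the gene rose from Day 3 to 4 weeks by a log2 change of 2.80 (SE 0.77, edgeR adjusted p = 0.023). The difference in effect between 4 weeks and Day 3 was 4.58 (95% interval 1.78 to 7.38, edgeR adjusted p = 0.091), and was past the threshold with the DESeq2 Wald test (4.69, adjusted p = 0.0084).

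*Gja1*, the fibroblast and muscle connexin gene Cx43, overlapped between the conditions at Day 3 and had lower values with *Sox17*-*Erg* from Day 7. Control libraries held 48.1 and 33.1 CPM at Day 3, 43.4 and 27.4 CPM at Day 7, and 30.3 and 21.3 CPM at 4 weeks. *Sox17*-*Erg* libraries held 51.3 and 37.8 CPM at Day 3, 22.1 and 16.3 CPM at Day 7, and 17 and 10.7 CPM at 4 weeks. The later groups were separate, with *Sox17*-*Erg* below at Day 7 and 4 weeks, as were 28.8% and 32.4% of all genes in that direction.

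The gap in *Gja1* between the conditions missed the threshold at each time point in the fit without pairing and passed it at Day 7 and 4 weeks in the paired fit. The log2 fold change was 0.13 (95% interval -0.59 to 0.86, edgeR adjusted p = 0.82) at Day 3, -0.88 (-1.62 to -0.14, adjusted p = 0.098) at Day 7 and -0.90 (-1.64 to -0.15, adjusted p = 0.082) at 4 weeks. The paired fit, chosen after seeing the data, had a block for each replicate number and time point. In it the log2 fold change was 0.14 (edgeR adjusted p = 0.36), -0.86 (adjusted p = 0.0019) and -0.91 (adjusted p = 0.0012). The DESeq2 Wald test called it lower at Day 7 (-0.89, adjusted p = 0.045) and 4 weeks (-0.88, adjusted p = 0.042). At Day 3 the sign was not stable, since it turned without control Day 3 replicate 2 (-0.15) and without *Sox17*-*Erg* Day 3 replicate 1 (-0.14). Over time *Gja1* fell within *Sox17*-*Erg*, by 1.68 on the log2 scale from Day 3 to 4 weeks (SE 0.33, edgeR adjusted p = 0.0067), against a change of -0.65 in control (SE 0.32, adjusted p = 0.17). The difference between the latter changes was -1.03 (95% interval -2.07 to 0.01, edgeR adjusted p = 0.3), and it passed the threshold in the paired fit (-1.05, adjusted p = 0.012).

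The replicates of *Gja1* differed in a steady way, with replicate 1 above replicate 2 in all 6 groups by 1.36 to 1.59-fold. The mesothelial and epithelial markers were also higher in replicate 1 in each group, for example 735 against 286 CPM in control at Day 3 and 254 against 162 CPM with *Sox17*-*Erg* at 4 weeks. Among the 13146 genes compared over the 12 libraries, the keratin genes *Krt18* (r = 0.959) and *Krt8* (r = 0.934), which belong to that marker list, were among the 3 genes most like *Gja1*. In control the marker sum was higher at 4 weeks (1390 and 878 CPM) than at Day 3 (735 and 286 CPM), whereas *Gja1* was lower at 4 weeks. *Msln* makes up most of that sum, and of the 7 tested markers 1 was called higher over this time in control (*Wt1*) and 2 were called lower, *Krt8* (log2 change -1.51, edgeR adjusted p = 0.044) and *Krt19* (-2.01, adjusted p = 0.03), with *Krt18* at -1.39 (adjusted p = 0.1). The keratins thus ran with *Gja1* and the sum did not. The part of mesothelial or epithelial cells in the *Gja1* values was not tested.

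*Gjc1* (Cx45) had the smallest ratio of highest to lowest level among the 5 tested connexins, running from 12.2 to 23.5 CPM over the 12 libraries. Control libraries held 15.4 and 17.2 CPM at Day 3, 16.2 and 13.9 CPM at Day 7, and 12.6 and 12.4 CPM at 4 weeks. *Sox17*-*Erg* libraries held 23.5 and 19.7 CPM at Day 3, 20.8 and 18.1 CPM at Day 7, and 12.2 and 16 CPM at 4 weeks. *Sox17*-*Erg* was above control at Day 3 and Day 7, and the groups overlapped at 4 weeks. The log2 fold change was 0.41 (95% interval 0.03 to 0.78, edgeR adjusted p = 0.14), 0.37 (-0.01 to 0.74, adjusted p = 0.17) and 0.18 (-0.20 to 0.55, adjusted p = 0.5) at the 3 time points. At 4 weeks its sign turned without *Sox17*-*Erg* 4 weeks replicate 2 (-0.06).

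Within *Sox17*-*Erg* *Gjc1* fell by 0.61 on the log2 scale from Day 3 to 4 weeks (SE 0.17, edgeR adjusted p = 0.023), and the change within control was -0.38 (SE 0.17, adjusted p = 0.12). *Gja1* and *Gjc1* were thus the 2 connexins called lower with time under *Sox17*-*Erg*, and *Gja4* and *Gja3* the 2 called higher, beside 15.6% and 15.1% of all genes. In control, *Gja4* was the 1 connexin called in that comparison. The difference in effect of *Gjc1* between 4 weeks and Day 3 was -0.23 (95% interval -0.76 to 0.30, edgeR adjusted p = 0.7). For 0 of the 5 connexins did that difference pass the edgeR test, at a background of 2.22% of all genes with a more positive effect and 0.987% with a more negative one at 4 weeks, while *Gja3* and *Gja4* had an unadjusted p under 0.05 the DESeq2 Wald test called *Gja3*, and the paired fit called *Gja1*.

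*Gjb2* (Cx26) was not detectable at this depth. It had 1 count in control Day 7 replicate 1 and 0 counts in the other 11 libraries. A count of 0 allows up to 3 counts, which is 0.0751 to 0.152 CPM depending on the library, and no fold change is given because both groups are at or under that limit. Library totals ran from 19011635 to 41240449 counts.

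Over the 3 time points together, *Gja4* and *Gja5* had the smallest p-value that free exchange of labels within time points allows. The treatment labels were exchanged within time points in every possible way, and pairing by replicate number was not used. The mean difference in log2(CPM + 0.5) was 1.51 for *Gja4* and 6.07 for *Gja5* (exact two-sided permutation p = 0.0093 for each, adjusted p = 0.033 over all tested genes). Of all genes, 14.6% reached that p with higher and 13.6% with lower levels. The difference was 1.58 for *Gja3* (exact permutation p = 0.019, adjusted p = 0.051), 0.30 for *Gjc1* (exact permutation p = 0.028, adjusted p = 0.068) and -0.53 for *Gja1* (exact permutation p = 0.074, adjusted p = 0.14).

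Levels of different genes were compared per kilobase of exon, as CPM per kb over the union of annotated exons. In control at Day 3 the order was *Gja1* (3.96 ± 1.03 CPM per kb, SD, n = 2), *Gja4* (3.56 ± 1.49) and *Gjc1* (3.26 ± 0.255), and these 3 did not differ beyond their spread, while *Gja5* (0.119 ± 0.0255) and *Gja3* (0.102 ± 0.0996) lay far below and within each other's spread. In control at 4 weeks *Gja4* led with 20.4 ± 8.41 CPM per kb, ahead of *Gja1* (2.52 ± 0.615) and *Gjc1* (2.5 ± 0.0283), which did not differ beyond their spread. With *Sox17*-*Erg* at Day 3, *Gja5* (5.69 ± 4.79), *Gja4* (5.41 ± 0.0495), *Gja1* (4.34 ± 0.926) and *Gjc1* (4.32 ± 0.537) lay within the spread of *Gja5*. At 4 weeks the order was *Gja4* (106 ± 17.1), *Gja5* (24.1 ± 2.19), *Gjc1* (2.82 ± 0.537), then *Gja3* (1.36 ± 0.0849) beside *Gja1* (1.35 ± 0.438). This order depends on the length used. Per kilobase of the longest transcript, *Gja1* stood clear in control at Day 3, at 10.5 ± 2.75 CPM per kb against 4.78 ± 0.375 for *Gjc1* and 3.56 ± 1.49 for *Gja4*. On that scale it was also above *Gjc1* in control at 4 weeks (6.63 ± 1.63 against 3.66 ± 0.0424) and above *Gja3* in *Sox17*-*Erg* at 4 weeks (3.56 ± 1.15 against 1.46 ± 0.0919).

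The mix of connexins shifted toward the arterial pair in both conditions, and the growing share was that of *Gja4*. *Gja4* and *Gja5* together made up 33.1 ± 11.9% (SD, n = 2) of the summed CPM per kb of the 6 genes in control at Day 3, 64.2 ± 21.6% of it at Day 7 and 79.4 ± 4.65% of it at 4 weeks. With *Sox17*-*Erg* they made up 54.5 ± 7.18%, 88.3 ± 5.37% and 95.9 ± 0.455%. The share of *Gja1* went from 36.4 ± 11.5% to 10.1 ± 1.17% in control between Day 3 and 4 weeks, and from 22.1 ± 2.26% to 0.987 ± 0.216% with *Sox17*-*Erg*. The control mix was almost all *Gja4* on the arterial side, since *Gja5* held 1.08%, 0.305% and 0.235% of it at the 3 time points. With *Sox17*-*Erg* the *Gja5* share was 26 ± 15.8%, 23.2 ± 12.9% and 17.9 ± 3.61%. On this length its mean share thus did not rise in either condition. A length taken from the longest transcript raises *Gja1*, whose union of exons is 10257 bases against 3889 for its longest transcript, and the pair then held 19.9% in control at Day 3 and 94% with *Sox17*-*Erg* at 4 weeks.

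**Figure D2:**
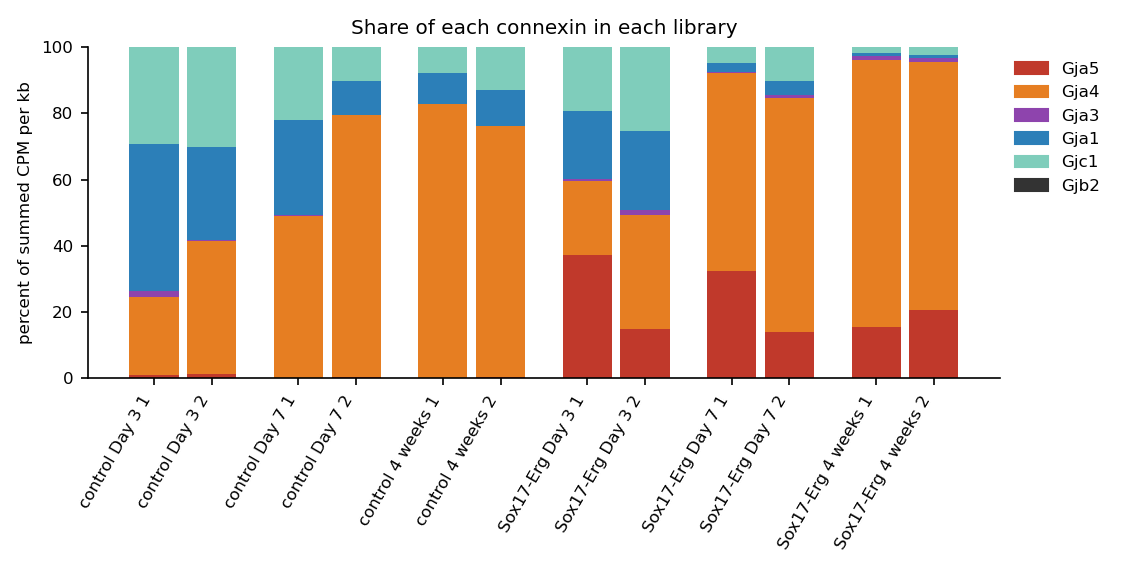
Percent of the summed CPM per kb of the 6 connexins (y axis) taken by each gene in each of the 12 libraries (x axis, group and replicate). *Gja4* fills a growing part of the bars with time in both conditions, the *Gja5* part is visible with *Sox17*-*Erg*, and the *Gja1* part shrinks to about 1% with *Sox17*-*Erg* at 4 weeks.

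Across the 12 libraries *Gja1* and *Gja4* ran in opposite directions (r = -0.87 of log2(CPM + 0.5)), and *Gja3* ran with *Gja5* (r = 0.84). The points share the 6 groups and their time trends, and the values are descriptions. The genes most like *Gja5* were *Pik3r3* (r = 0.991), *St8sia2* (0.991) and *Fzd3* (0.990). Those most like *Gja4* were *Epas1* (0.972), *Map7* (0.971) and *Ltbp4* (0.959), and those most like *Gja3* were *Six4* (0.981), *Stk38l* (0.977) and *Efna1* (0.969). *Gjc1* was most like *Fen1* (0.966), *Siva1* (0.964) and *Exo1* (0.961), and *Tmem108* (0.969) was the gene most like *Gja1*.

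Among 10 further mouse connexin genes, 8 stayed below the filter, with at most 8 counts in any library, and 2 were tested. Neither was called at any time point. *Gjb5* had log2 fold changes of -1.38, 0.25 and -1.42 at the 3 time points, and *Gjc3* had -0.97, -0.90 and -0.44. Of the pannexins, which form related channels, 1 of 3 was tested, and *Panx1* was not called (log2 fold changes 0.38, 0.28 and 0.28).

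**Figure D3:**
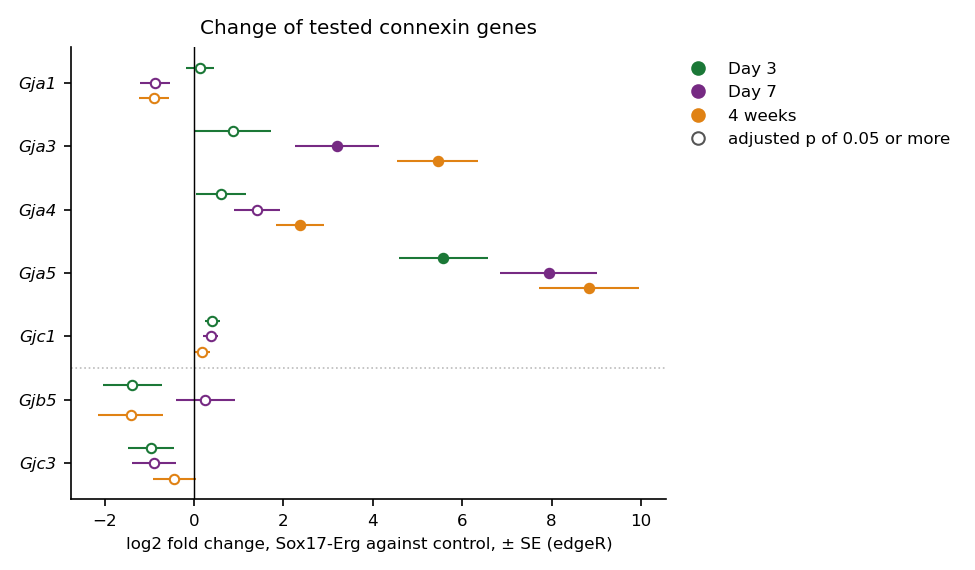
Log2 fold change of *Sox17*-*Erg* against control (x axis, bars are the SE of the edgeR fit) for 7 tested connexins (y axis) at 3 time points, with filled points for adjusted p under 0.05 and the 5 connexins followed here above the dotted line. At 4 weeks *Gja5*, *Gja3* and *Gja4* lie to the right with filled points, and the points of *Gja1*, *Gjc1*, *Gjb5* and *Gjc3* are open at every time point.

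Gap junction plaques are held, trafficked and gated by other proteins, and 14 such partner genes are described. All 14 were tested, and 4 were called higher at Day 3, 5 were higher at Day 7 and 5 were higher at 4 weeks, with 1 called lower at 4 weeks. The shares of all tested genes called higher were 7.19%, 9.48% and 11.9%, and 11% were lower at 4 weeks. Their median log2 fold change was 0.15, 0.21 and 0.20 at the 3 time points. *Dbn1*, *Cav1* and *Ccn3* were higher at every time point. *Tjp1*, a zonula occludens scaffold that binds the tail of Cx43, was called higher at Day 3 (log2 fold change 0.92, edgeR adjusted p = 0.014), with 0.51 (adjusted p = 0.074, and 0.034 in the paired fit) at Day 7 and 0.40 (adjusted p = 0.13) at 4 weeks.

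*Ccn3*, a matricellular protein that binds Cx43, had the largest log2 fold change of these partners, from 2.23 at Day 3 (SE 0.44, edgeR adjusted p = 0.016) to 6.11 at 4 weeks (SE 0.52, adjusted p = 8.3e-05). Control libraries held 1.13 to 4.67 CPM of it, and *Sox17*-*Erg* libraries held 24.4 and 13.3 CPM at Day 3, 44.7 and 25 CPM at Day 7, and 107 and 60.4 CPM at 4 weeks. The caveolar coat gene *Cav1* was higher by 1.97, 2.68 and 2.30, and the actin-binding drebrin gene *Dbn1* by 0.76 at Day 3 and 1.15 at 4 weeks on the log2 scale. Among kinases that phosphorylate connexins, *Src* was higher at Day 7 (0.48, edgeR adjusted p = 0.037) and 4 weeks (0.82, adjusted p = 0.0026), and in the paired fit also at Day 3 (0.42, adjusted p = 0.036). Its call at Day 7 was lost in 13 of 21 alternative fits (log2 fold change 0.39 to 0.54, edgeR adjusted p up to 0.21). *Prkca* was higher at Day 7 (0.81, adjusted p = 0.0086) and 4 weeks (1.20, adjusted p = 0.00089). *Prkce* was lower at 4 weeks (-0.77, adjusted p = 0.0056). At Day 3 the calls for *Tjp1* and *Ccn3* were lost in 5 of 21 alternative fits each, that for *Dbn1* in 4 and that for *Cav1* in 3, and the Day 7 call for *Prkca* was lost in 2. The ubiquitin ligase genes *Nedd4*, *Wwp1* and *Smurf2*, the endosomal gene *Tsg101*, and *Cdh2*, *Cnst* and *Csnk1d* were not called at any time point, with log2 fold changes between -0.29 and 0.25.

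Of 8 transcription factor genes with known roles at connexin promoters, 1 was called higher at Day 3, 2 were higher at Day 7 and 3 were higher at 4 weeks, beside 7.19%, 9.48% and 11.9% of all tested genes. With 8 genes, the 1 call at Day 3 is near that background. *Tbx2* had negative log2 fold changes that did not pass the test (-0.69, -0.72 and -0.44), and in the paired fit it was called lower at Day 3 (adjusted p = 0.05 after rounding) and Day 7 (adjusted p = 0.03). *Jun*, a component of AP-1, was higher at each time point, by 1.69 (SE 0.29, edgeR adjusted p = 0.0097), 2.22 (SE 0.29, adjusted p = 0.0015) and 2.79 (SE 0.30, adjusted p = 0.00028) on the log2 scale. *Tbx3*, a repressor of *Gja1* and *Gja5* in the conduction system, was higher at Day 7 (1.68, SE 0.30, adjusted p = 0.0058) and 4 weeks (2.14, SE 0.30, adjusted p = 0.0012). It ran at 1.77 to 3.53 CPM in control and reached 10.4 and 11 CPM with *Sox17*-*Erg* at 4 weeks. *Klf4* was higher at 4 weeks (2.51, SE 0.29, edgeR adjusted p = 0.00041) and in the paired fit also at Day 7 (0.51, adjusted p = 0.027), and at 4 weeks it stood at 102 and 58.1 CPM against 15.6 and 12.5 CPM. *Tbx5*, *Nkx2-5*, *Klf2* and *Sp1* were not called either, and the cardiac activators of *Gja5*, *Tbx5* and *Nkx2-5*, had log2 fold changes of 0.02 and 0.52 at 4 weeks.

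**Figure D4:**
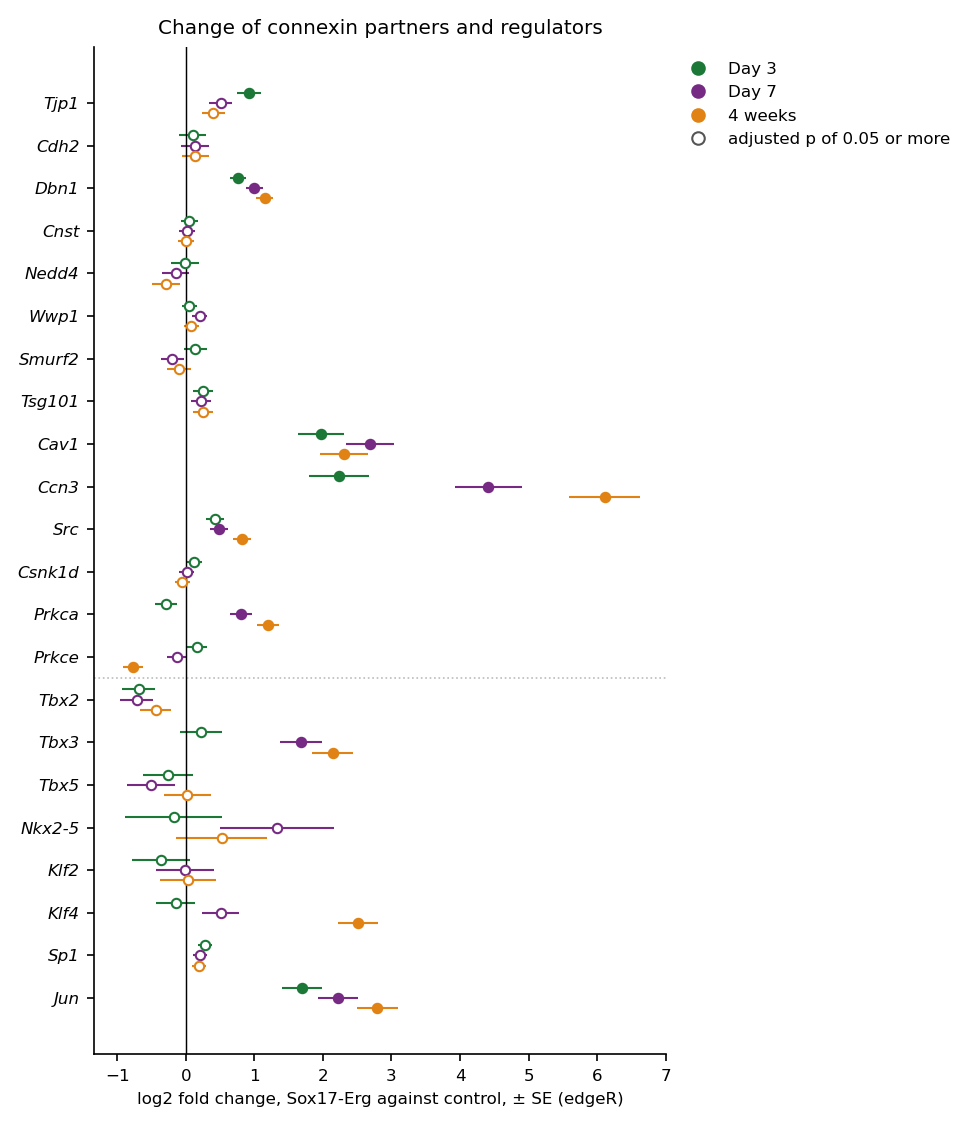
Log2 fold change of *Sox17*-*Erg* against control (x axis, bars are the SE of the edgeR fit) for connexin partners (above the dotted line) and promoter regulators (below it) at 3 time points, with filled points for adjusted p under 0.05. *Ccn3* moves furthest, to 6.11 at 4 weeks, *Jun*, *Cav1* and *Dbn1* are filled as well at every time point, and most turnover genes lie near 0.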

How the data were processed

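RNA from 12 heart fibroblast cultures was made into stranded Kapa mRNA libraries. The authors demultiplexed reads with bcl2fastq 2.20.0, trimmed high GC content with BBDuk, ran Salmon on the transcripts and deposited whole-number estimated counts for genes, with no scaling. The labels name mm10. The Salmon version and annotation are not given in the sources used here. Groups came from the sample labels. Symbols, positions and lengths came from GENCODE M21 (GRCm38), which held 35422 of 35727 genes.

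Counts were fitted with edgeR 4.0.16 in R 4.3.3 (TMM, filterByExpr at min.count 10 and min.total.count 15, which kept 15506 genes, quasi-likelihood, 1 mean per group, 6 residual degrees of freedom, no covariate). Benjamini-Hochberg adjustment ran over all tested genes, with a call at an adjusted p under 0.05. Each SE was derived from the edgeR fit, as the absolute log2 change divided by the square root of the quasi-likelihood F statistic. SDs are of 2 libraries, and counting intervals and floors of 3 counts cover counting error only. The fit was tested on simulated data. Alternatives were the DESeq2 1.42.0 Wald test, its size factors, other filters, single time points, adjusted p under 0.01, a replicate block over all libraries, each library left out, a pseudocount of 2 in place of 0.5, other gene lengths and, chosen after seeing the data, a replicate block within each time point (3 residual degrees of freedom) and both control libraries with the most endothelial transcripts left out. For the difference in effect between time points, the size factors, filters and stricter threshold were also added after seeing the data. The labels number the replicates without saying what a number marks. In the paired fit the numbers were read as pairs within a time point. Same-numbered *Sox17*-*Erg* and control libraries of Day 3, Day 7 and 4 weeks correlated at 0.33, 0.44 and 0.23 in their deviations from the group means over 13147 genes. Between time points the values ran from -0.23 to 0.35, so the correlations do not single out pairs within a time point.

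The connexins and gene lists were chosen with earlier results of these data known. All 6 connexins are named, as is every partner, regulator or other connexin called at 1 or more time points, and per tested connexin the 3 genes with the highest Pearson r among genes with a mean of at least 1 CPM. Some genes of these lists are not reported here, and their counts and medians cover the genes that are. Neighbouring genes named for context were added after the values were seen.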

Additional observations from a re-analysis of the deposited data

Results flagged for a closer look

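The *Sox17*-*Erg* effect itself differed between 4 weeks and Day 3 for 5 genes among the connexin partners and regulators, by the interaction term of the edgeR fit, and for 0 connexins. Of all tested genes, 2.22% were called with a more positive effect at 4 weeks and 0.987% with a more negative one. The difference in log2 fold change was 3.88 for *Ccn3* (adjusted p = 0.015), 2.66 for *Klf4* (adjusted p = 0.0097), 1.93 for *Tbx3* (adjusted p = 0.045), 1.49 for *Prkca* (adjusted p = 0.01) and -0.93 for *Prkce* (adjusted p = 0.048). The call for *Klf4* was kept in 20 of 20 alternative fits, that for *Prkca* in 18, that for *Ccn3* in 14, that for *Tbx3* in 8 and that for *Prkce* in 5. With libraries paired by replicate number within each time point, *Tbx3* missed the threshold (1.92, adjusted p = 0.052), and *Jun* (1.06, adjusted p = 0.019) and *Gja1* (-1.05, adjusted p = 0.012) passed it. At an unadjusted p under 0.05, *Gja3* and *Gja4* also had more positive effects at 4 weeks.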

How the results depend on the processing

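The number of connexins called was recomputed under each alternative. With the DESeq2 Wald test 1 connexin was called lower at Day 7 and 1 at 4 weeks (*Gja1*), and 1 had a more positive effect at 4 weeks than at Day 3 (*Gja3*). Without a filter on low counts 1 was called lower at Day 7 and 1 at 4 weeks, and for the difference in effect 3 were called higher and 1 lower. With single time points fitted alone 1 was higher at Day 7, and with an adjusted p under 0.01 0 were higher at Day 3 and 1 at Day 7. With both control libraries rich in endothelial transcripts left out, a single control library remained at Day 3 and at Day 7. The log2 fold change of *Gja1* at Day 3 then turned to -0.15.

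Leaving out each library in turn gave 0 to 1 connexins called higher at Day 3, 1 to 2 called at Day 7 and 2 to 3 called after 4 weeks. The Day 3 call fell without either control Day 3 library or *Sox17*-*Erg* Day 3 replicate 1. The Day 7 count fell to 1 without control Day 7 replicate 1 or any 1 of the 6 *Sox17*-*Erg* libraries. The log2 fold change of *Gja1* at Day 3 ranged from -0.15 to 0.43, and was -0.14 without *Sox17*-*Erg* Day 3 replicate 1, and that of *Gjc1* at 4 weeks ranged from -0.06 to 0.35.

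The replicate number was used as a block in a pair of alternatives, 1 with a single term over all 12 libraries and 1, added after seeing the data, with a term for each time point. With either replicate block 1 connexin, *Gja1*, was called lower at Day 7 (adjusted p = 0.0014 with the single term and 0.0019 within time points) and at 4 weeks (0.00069 and 0.0012), and 1 had a more negative effect at 4 weeks than at Day 3 (*Gja1*, 0.0099 and 0.012). Within time points 1 connexin was higher at Day 7, since *Gja3* missed the threshold, and the Day 3 calls came to 1973 genes up and 1619 down, with 2065 down at Day 7. It changed no other connexin call between the conditions.

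With lengths from the longest transcript, *Gja4* and *Gja5* held 19.9% (Day 3) and 65.6% (4 weeks) of the mix in control and 42.8%, 82.7% and 94.0% with *Sox17*-*Erg* over the 3 time points. *Gja1* then held 54.5%, 34.9% and 21.8% in control and 36.2%, 7.61% and 2.31% with *Sox17*-*Erg*. Counts over all genes differed by over 1.5 times in some fits. At Day 3, 795 genes were lower by edgeR against 1250 by DESeq2 and 1333 without a filter, and 183 were higher and 142 lower without both endothelial-rich control libraries, against 1115 and 795. At Day 7, 609 were higher and 479 lower in the time point alone, and 619 and 479 without both libraries, against 1470 and 1230. Leaving out both libraries leaves a single control library at Day 3 and at Day 7, and a time point fitted alone holds only its own libraries. The cause of these shifts was not tested. With 2 libraries per group an SD is imprecise, *Gja3* rests on few control counts, and *Gjb2* cannot be compared at this depth.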
